A study of Homo sapiens with 4 samples.

Results

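Chromosomes 21 and 22 are the smallest human autosomes, and they were set against each other here as a gene-poor and a gene-rich chromosome in single cells that were copying their DNA. All bins of these chromosomes in a table of replication states were taken, 566 of 27704 bins of 80 kb, of which 403 lay on chromosome 21 and 163 on chromosome 22. The states came from 207 S-phase cells of DKO1 and 322 S-phase cells of HCT116. HCT116 is a colorectal cancer line of human origin, and DKO1 is the same line after knockout of DNMT1 and DNMT3B, per the submitters' description. DNMT1 keeps methylation on newly made DNA strands and DNMT3B places it on unmethylated sites. Both lines were grown in the same medium, sorted by DNA content into early, mid and late S phase, pooled in equal numbers and sequenced as 1 library per line on a droplet system for copy number. DKO1 is a single derived line, so a difference between the lines cannot be told apart from any other difference between this derivative and its parent. The G1 libraries of both lines were not analysed here.

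Human DNA is copied in blocks, called replication domains, that each start at their own time in S phase. Domains rich in active genes are copied early and lie in the interior of the nucleus, and gene-poor domains are copied late, often at the nuclear edge or near nucleoli. Chromosomes 21 and 22 are both acrocentric: their short arms carry ribosomal RNA genes and repeats, and nearly all other genes sit on the long arm. Chromosome 21, whose extra copy causes Down syndrome, has a wide gene-poor stretch in the part of its long arm next to the centromere, and its genes crowd toward the far end. Chromosome 22 is gene-dense along most of its long arm and lies centrally in the nucleus.

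The label of a gene-poor and a gene-rich chromosome held in the RefSeq table, which lists 239 protein-coding genes on chromosome 21 and 451 on chromosome 22 (GRCh38.p14, whole chromosomes). Promoters differed in the same direction. RefSeq promoter sequences, matched by gene ID for 183 genes of chromosome 21 and 308 of chromosome 22, had a median GC content of 60.3% on chromosome 21 and 67.0% on chromosome 22, against 63.0% over 15100 promoters of all autosomes. An observed over expected CpG ratio above 0.6 was found in 54.6% of the promoters of chromosome 21 and in 73.1% of those of chromosome 22, against 66.3% over all autosomes. CpG sites are where the enzymes knocked out in DKO1 place methylation. The state table is on another build: its last bins end at 48080000 on chromosome 21 and 51280000 on chromosome 22, past the last gene ends of 46691275 and 50799637 in GRCh38. The submitters' processing notes name hg19 and GRCh37. Coordinates below are those of the table, and no gene was assigned to a bin.

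The 2 chromosomes were not covered alike. On chromosome 21 the bins ran from 10480001 to 48080000 and filled 85.7% of that span. The longest gap there, 3.68 Mb from 10960001 to 14640000, is where the centromere lies in the builds the notes name. On chromosome 22 the bins ran from 16880001 to 51280000 but filled 37.9% of the span, in a block of 35 bins up to 23440000 and a block of 128 bins from 40000001. The 16.56 Mb between these blocks were not analysed here, so every value of chromosome 22 describes those blocks and not the whole arm. A bin was used where 90% or more of the cells in both lines had a call, which left 402 bins (32.2 Mb) of chromosome 21 and 163 bins (13.0 Mb) of chromosome 22. No cell barcode was shared between the libraries.

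Each call is a code. A replicated bin was taken to be one with code 2, an unreplicated bin one with code 1, and code 0 was left out as no call. This reading was made earlier because code 2 follows gene density over chromosomes, so the order of chromosomes 21 and 22 is no separate support for it. Progress through S phase was measured in each cell as the share of code 2 among its codes 1 and 2, in percent, over all used autosomal bins. To compare the lines at matched progress, cells were put into 6 strata of 10 points from 20 to 80% progress, which held 206 DKO1 and 320 HCT116 cells, and the percent of cells in which a bin was replicated was averaged over the strata with equal weight. This value is called the standardised share. With 1 library per line there was no replicate spread, and no test between the lines was made. Exact binomial (Clopper-Pearson) 95% intervals are given for shares of cells. They cover the counting of cells only, and the read depth behind a call is unknown.

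Chromosome 21 was replicated in far fewer cells than chromosome 22 in both lines. The mean standardised share of chromosome 21 was 43.4% in DKO1 and 39.6% in HCT116, and that of chromosome 22 was 83.2% in DKO1 and 79.8% in HCT116. Chromosome 21 thus lay 39.8 points below chromosome 22 in DKO1 and 40.3 points below it in HCT116. Across all used bins the mean was 49.8% in each line. Among the 21 chromosomes with at least 100 used bins, chromosome 22 ranked 1 in both lines, and chromosome 21 ranked 16 in DKO1 and 19 in HCT116. The low mean of chromosome 21 was not uniform along the arm. The SD of its bins' shares was 33.5 points in DKO1 and 35.8 points in HCT116, and on chromosome 22 it was 23.3 points in DKO1 and 26.2 points in HCT116.

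**Figure D1:**
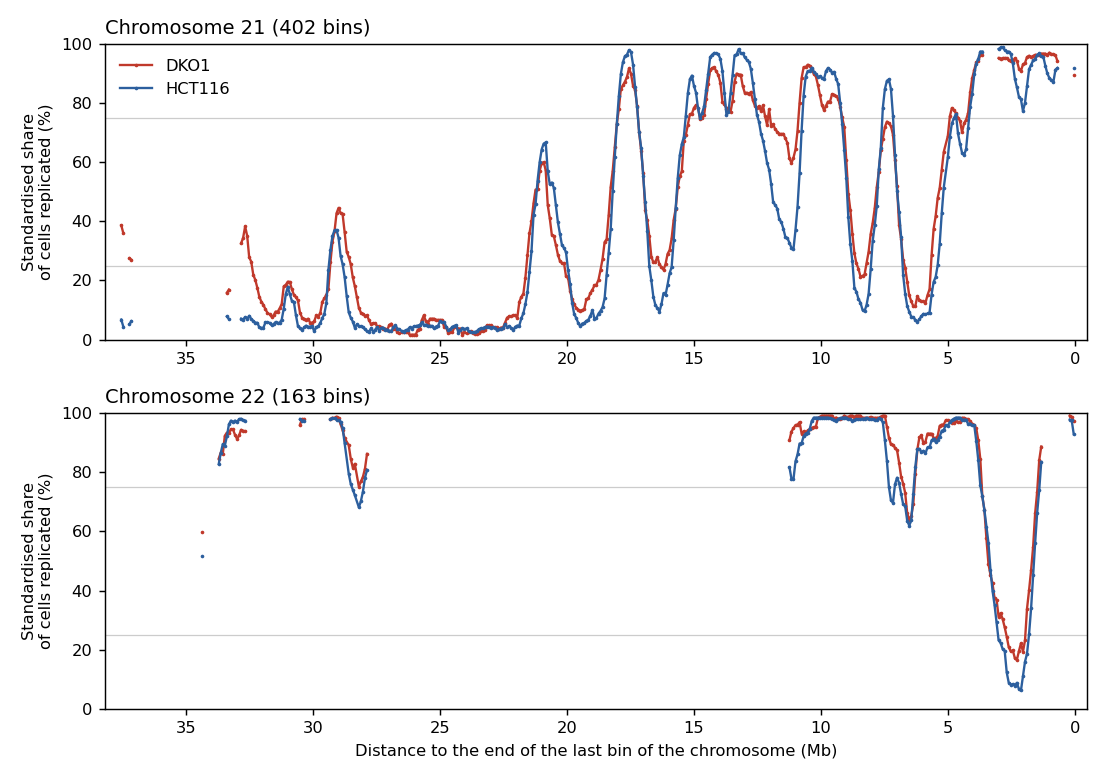
Standardised share of cells in which each 80 kb bin was replicated (y axis, percent) against the distance of the bin to the end of the last bin of its chromosome (x axis, Mb, far end on the right), for chromosome 21 (top) and chromosome 22 (bottom), with DKO1 in red and HCT116 in blue. Breaks are stretches without used bins, and grey lines mark 25% and 75%. Chromosome 21 passes from late to early in a series of peaks toward its end, and chromosome 22 stays above 60% in both lines except in the bins of 1 late trough near its end, with its slopes, and in the bin nearest the centromere.

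Along chromosome 21 the arm fell into a late and an early part. Between the centromeric gap and 30 Mb the 187 bins had a mean share of 15.6% in DKO1 and 12.0% in HCT116. In the 211 bins from 30 Mb to the end it was 68.3% in DKO1 and 64.6% in HCT116. Domains were then drawn on HCT116, as runs of at least 3 bins that all stayed below 25% (late) or above 75% (early). The longest late domain ran from 19280001 to 26640000, 7.36 Mb, with a share of 7.23% in DKO1 and 4.90% in HCT116. Most of it was replicated in 2 of 202 DKO1 cells (0.990%, interval 0.120 to 3.53%) and 7 of 318 HCT116 cells (2.20%, 0.889 to 4.48%). The latest bin of the chromosome by the mean of both lines lay within it, from 24400001 to 24480000, with a share of 1.98% in DKO1 and 2.58% in HCT116. In the 5 Mb window from 20 to 25 Mb the bins' shares ran from 1.67 to 8.78% in DKO1, with a mean of 4.16% in DKO1 and 3.9% in HCT116, so the late core was low in both lines.

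The far end of chromosome 21 was its earliest part. The longest early domain ran from 45040001 to 47440000 with a share of 95.2% in DKO1 and 91.6% in HCT116. By strata from 20 to 80% progress, its bins were replicated in 94.1, 91.2, 99.1, 89.5, 97.3 and 100% of calls in DKO1 and in 71.3, 88.4, 93.9, 98.6, 97.2 and 100% in HCT116. It was thus already copied in the DKO1 cells at 20 to 30% progress more often than in the HCT116 cells at that progress, though that stratum held 11 DKO1 cells. Other early domains lay from 33360001 to 35600000 (83.9% in DKO1 and 89.7% in HCT116), from 37360001 to 38880000 (85.0 and 88.9%), from 30080001 to 30880000 (85.6 and 91.1%) and from 32720001 to 33280000 (75.9% in DKO1 and 83.5% in HCT116). Late islands stood between them and among the intermediate bins. In the island from 31280001 to 32240000 the share was 28.0% in DKO1 and 16.6% in HCT116. From 41280001 to 42640000 it was 19.3% in DKO1 and 11.3% in HCT116.

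Most of the bins of chromosome 22 at hand were early. Shares above 75% took 79.1% of its bins in DKO1 and 73.0% in HCT116, against 28.4% of the bins of chromosome 21 in DKO1 and 27.1% in HCT116. Over all used autosomal bins such shares took 28.6% in DKO1 and 32.7% in HCT116. In early bins chromosome 21 thus lay near the whole table in DKO1 and below it in HCT116. Shares below 25% took 6.13% of the bins of chromosome 22 in DKO1 and 9.20% in HCT116. On chromosome 21 they took 40.5% in DKO1 and 49.8% in HCT116. Over all used autosomal bins the shares below 25% took 30.2% in DKO1 and 33.6% in HCT116. The longest early domain of chromosome 22, from 40000001 to 44000000, had a share of 97.4% in DKO1 and 94.8% in HCT116. The next, from 44960001 to 47600000, had 94.1% in DKO1 and 92.3% in HCT116. The block nearer the centromere was early too, with a domain from 17520001 to 18640000 at 91.7% in DKO1 and 94.0% in HCT116. By the mean of both lines the earliest bins of chromosome 22 were a tied pair from 41280001 to 41440000, each at 99.2% in DKO1 and 98.5% in HCT116.

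The bins of chromosome 22 held 1 late domain, and it lay close to the chromosome end, where chromosome 21 was early. It ran from 48240001 to 49440000 with a share of 23.8% in DKO1 and 13.2% in HCT116. Most of it was replicated in 34 of 206 DKO1 cells (16.5%, 11.7 to 22.3%) and 20 of 321 HCT116 cells (6.23%, 3.85 to 9.46%). The 3 bins from 51040001 to 51280000 beyond it were early again, at 98.4% in DKO1 and 96.1% in HCT116. Over the last 10 Mb of bins, which are the better matched stretches of the 2 chromosomes, the share of chromosome 21 was 65.5% in DKO1 and 61.9% in HCT116 (110 bins), and that of chromosome 22 was 79.4% in DKO1 and 75.5% in HCT116 (112 bins). The gap between the chromosomes was thus smaller there than over all their bins.

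Both chromosomes were replicated in a somewhat larger share of DKO1 cells than of HCT116 cells at matched progress. The difference was 3.83 points on chromosome 21, where 258 bins were higher and 144 lower in DKO1, and 3.37 points on chromosome 22, where 129 bins were higher and 34 lower. The mean difference over all used bins was -0.04 points. By this difference chromosome 21 ranked 2 and chromosome 22 ranked 4 of the 21 chromosomes. The order of bins was otherwise close between the lines, with Pearson's r across bins, which are not independent, of 0.966 on chromosome 21 and 0.984 on chromosome 22. The difference was 2.27 points on chromosome 21 and 1.67 points on chromosome 22 when cells were pooled without matching. On chromosome 22 it was 1.5 points with the strata from 30 to 70% and 1.88 points with the cells whose code 0 did not exceed 1% of bins.

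Most bins differed little, and nearly all of those that differed far were higher in DKO1. A difference of at least 15 points was reached by 42 of 402 bins of chromosome 21 in the direction higher in DKO1 (10.4%), against 6.90% of all used autosomal bins. In the direction lower in DKO1 it was reached by 2 bins (0.498%), against 7.39% of all. On chromosome 22, 7 of 163 bins were higher by that much (4.29%) and 0 lower. Bins of 80 kb next to each other share domains, so these counts are of a few regions. On chromosome 21, 17 of the 42 bins lay in 1 region and 11 lay before 16 Mb. In either direction 44 bins of chromosome 21 (10.9%) and 7 of chromosome 22 (4.29%) differed by at least 15 points. Over all used bins this was 14.3%, so both chromosomes had fewer such bins than the whole table. Without that region the count of chromosome 21 was 27, and without either set 16. Among the 36 bins of chromosome 21 called in at least 99% of cells, 6 differed that much, a larger part than 44 of 402. The part of all 8044 autosomal bins called that often was not computed. Without both sets the mean difference of chromosome 21 was 1.97 points. On chromosome 22 the count was 3 with no matching and 3 with the strata from 30 to 70%.

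**Figure D2:**
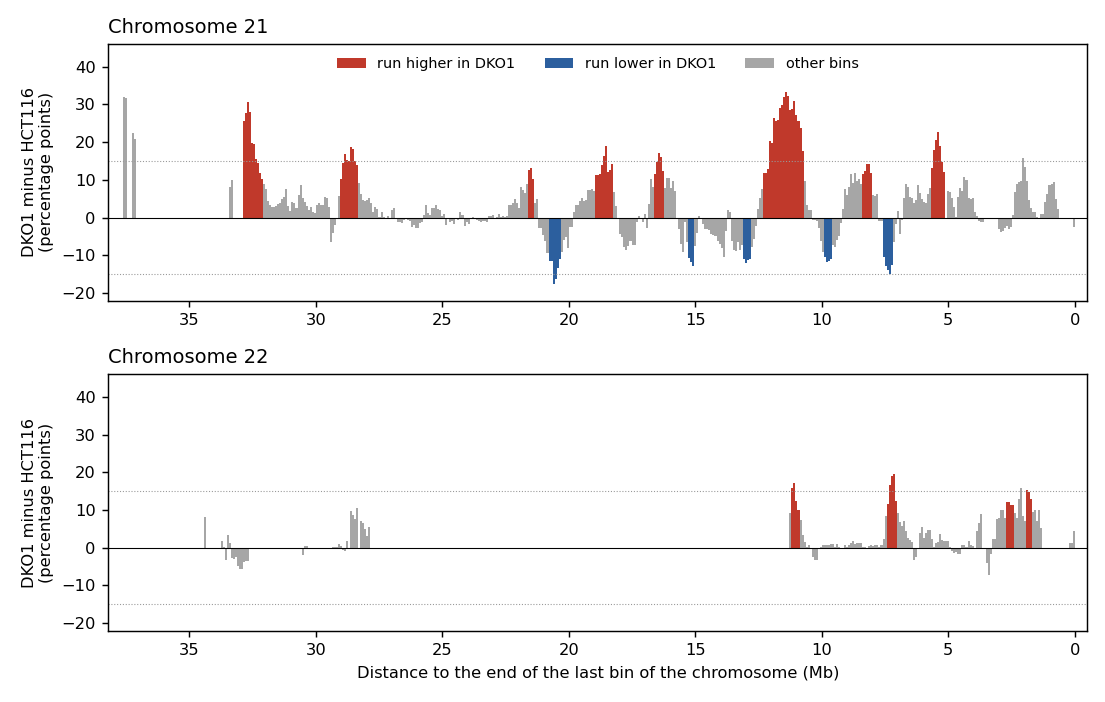
Difference in standardised share between DKO1 and HCT116 (y axis, percentage points, above 0 where DKO1 is higher) of each bin against its distance to the end of the last bin (x axis, Mb, far end on the right), for chromosome 21 (top) and chromosome 22 (bottom). Red and blue bars are bins in runs of at least 3 bins that differ by at least 10 points in the same direction, and dotted lines mark 15 points. The tallest broad block on chromosome 21 is the region of 20 bins that differed by 24.7 points on average, and chromosome 22 has no run lower in DKO1.

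The region with the largest summed difference lay on chromosome 21 from 35760001 to 37360000, 1.6 Mb between 2 early domains. Its share was 71.1% in DKO1 and 46.4% in HCT116, a difference of 24.7 points, and its 20 bins differed by 11.8 to 33.3 points. In HCT116 the region was a valley. The share was 67.3% in its first bin, 30.7% in its lowest bin, from 36960001 to 37040000, and 70.7% in its last bin. In DKO1 the valley was shallow, with 79.2% in the first bin, 59.8% in the lowest bin, from 36880001 to 36960000, and 88.4% in the last. The largest single difference was 33.3 points in the bin from 36640001 to 36720000 (68.1% in DKO1 and 34.7% in HCT116).

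In this region the share was higher in DKO1 in each stratum, with intervals that overlapped in the first and the last 2. The region was picked by its difference in these same cells, so the separate intervals are no further support for it. By strata from 20 to 80% progress, the region's bins were replicated in 34.5, 46.8, 76.6, 77.6, 94.1 and 96.7% of calls in DKO1 and in 12.4, 15.7, 35.0, 46.6, 79.5 and 89.2% in HCT116. With straight lines between the middles of the strata, 50% was reached at a progress of 36.1% in DKO1 and 56.0% in HCT116. At 40 to 50% progress the larger part of the region had been copied in 44 of 53 DKO1 cells (83.0%, 70.2 to 91.9%) and 13 of 60 HCT116 cells (21.7%, 12.1 to 34.2%). At 60 to 70% progress the lines were closer, with 39 of 40 DKO1 cells (97.5%, 86.8 to 99.9%) and 69 of 82 HCT116 cells (84.1%, 74.4 to 91.3%). The early domains on both sides, from 33360001 to 35600000 and from 37360001 to 38880000, did not share the direction and had lower shares in DKO1 than in HCT116. Code 0 took 1.96% of the region's calls in DKO1 and 0.264% in HCT116, and in the settings tried the region's difference ran from 23.4 to 30.4 points and was 29.6 points with the strata from 30 to 70% alone. The highest value came from the cells whose code 0 did not exceed 1% of bins, which could be matched in those strata only.

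**Figure D3:**
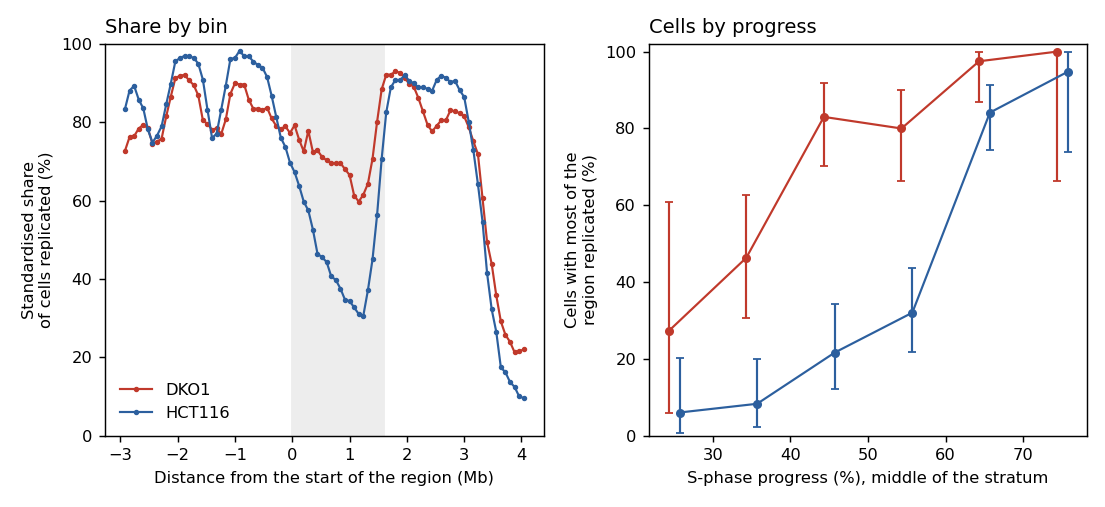
Left, standardised share (y axis, percent) of each bin around the region of chromosome 21 with the largest summed difference, against the distance from its start (x axis, Mb), with the region shaded. Right, percent of cells with most of the region replicated (y axis) by stratum of S-phase progress (x axis, percent), with exact 95% intervals of the count of cells, DKO1 in red and HCT116 in blue. HCT116 shows a valley down to 30.7% where DKO1 stays at or above 59.8%, and the intervals of the lines do not overlap in the strata from 30 to 60% progress. The region was picked by its difference in these same cells.

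Bins beside the centromere of chromosome 21 were replicated in few HCT116 cells and in clearly more DKO1 cells. Before the centromeric gap, from 10480001 to 10960000, 4 used bins had a share of 32.3% in DKO1 and 5.67% in HCT116. Most of this stretch was replicated in 39 of 204 DKO1 cells (19.1%, 14.0 to 25.2%) and 5 of 322 HCT116 cells (1.55%, 0.506 to 3.59%). Code 0 took 3.14% of these calls in DKO1 and 0.854% in HCT116. After the gap, from 14640001 to 16000000, the 12 bins were each higher in DKO1, with a mean of 25.1% in DKO1 and 6.69% in HCT116. Of these, the run from 15200001 to 16000000 had 26.9% in DKO1 and 6.55% in HCT116. In the cells low in code 0, at no more than 1% of bins, the difference of this run was 11.1 points, against 20.3 points with all cells and 18.8 points with all cells in the strata from 30 to 70%. By strata it was mostly replicated in 12 of 49 DKO1 and 3 of 78 HCT116 cells at 50 to 60% progress, and in 21 of 40 DKO1 and 7 of 81 HCT116 cells at 60 to 70%. These stretches were chosen after their values were seen. Bins this close to a centromere hold repeats, to which reads map poorly, and the part of mapping in the difference was not tested.

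The other runs higher in DKO1 lay in late domains of chromosome 21 or across their rims. Together, runs of at least 3 bins that differed by at least 10 points held 68 bins higher in DKO1 (16.9%, against 13.5% of all used bins) and 22 bins lower (5.47%, against 13.6%). From 19040001 to 19760000 the share was 32.0% in DKO1 and 16.8% in HCT116, where a small peak descends into the longest late domain. From 29120001 to 29840000 it was 29.9% in DKO1 and 16.3% in HCT116, and from 42400001 to 42960000 it was 46.8% in DKO1 and 29.7% in HCT116. Of the 5 runs lower in DKO1, 4 lay inside early domains. The one with the largest sum, from 27280001 to 27760000 on the slope of a peak, had 36.3% in DKO1 and 49.8% in HCT116, a difference of -13.6 points. Most of it was replicated in 14 of 48 DKO1 cells (29.2%, 17.0 to 44.1%) and 47 of 77 HCT116 cells (61.0%, 49.2 to 72.0%) at 50 to 60% progress. From 40480001 to 40880000 the share was 71.8% in DKO1 and 84.7% in HCT116. The others, from 34960001 to 35280000, from 38160001 to 38480000 and from 32800001 to 33040000, had 84.0, 79.5 and 75.1% in DKO1 and 95.2, 90.5 and 86.9% in HCT116. In the cells low in code 0 the differences of the run at 34960001 and the run at 32800001 were -4.87 and -3.04 points, against -11.3 and -11.8 points with all cells, and that of the run at 27280001 was -21.6 points. With all cells in the strata from 30 to 70% these differences were -5.23, -9.11 and -14.9 points. With no matching the run at 34960001 had a difference of -6.68 points.

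On chromosome 22 there were 4 such runs, each higher in DKO1. They held 16 bins (9.82%, against 13.5% of all used bins). From 43840001 to 44240000 the share was 90.8% in DKO1 and 75% in HCT116, at a dip in HCT116 where the DKO1 share declined steadily. Its difference was 15.8 points with all cells, 9.95 points with the strata from 30 to 70% and 9.22 points in the cells low in code 0. From 40080001 to 40400000 it was 95.2% in DKO1 and 81.3% in HCT116. This run lies at the edge of the block of bins, beside the part of the arm that was not analysed here. With the strata from 30 to 70% its difference was 7.59 points, against 13.9 points with all strata. In the late domain, the run from 48560001 to 48880000 had 21.1% in DKO1 and 9.42% in HCT116, a difference of 11.7 points that was 6.21 points in the cells low in code 0 and 9.58 points with all cells in the strata from 30 to 70%. At the rim the run from 49360001 to 49600000 had 40.3% in DKO1 and 26.0% in HCT116.

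The differences were also set beside those of bins of the same broad timing class on the other autosomes. Bins were split over the whole table into 3 equal classes by the mean share of both lines. Of the bins of chromosome 21, 193 (48.0%) fell in the late class, 88 in the middle class and 121 in the early class. Of those of chromosome 22, 13 (7.98%) were late, 20 middle and 130 early. In the middle class chromosome 21 had 52.5% in DKO1 and 44.6% in HCT116, a difference of 7.90 points, while the other autosomes had 48.2% in DKO1 and 50.3% in HCT116, a difference of -2.12 points. The region from 35760001 to 37360000 held 18 of these 88 bins, and without it the middle class of chromosome 21 had 48.1% in DKO1 and 44.8% in HCT116, a difference of 3.30 points, as computed after seeing the data. In the early class chromosome 22 had 93.8% in DKO1 and 91.3% in HCT116, a difference of 2.46 points, while the other autosomes had 86.6% in DKO1 and 89.9% in HCT116, a difference of -3.30 points. The early class of chromosome 21 shared the direction of the other autosomes, with 85.8% in DKO1 and 87.7% in HCT116, a difference of -1.89 points. In the middle class of chromosome 22 the difference was 4.37 points. In the late class the difference was 5.57 points on chromosome 21, close to the 5.07 points of the other autosomes, and 10.9 points in the 13 bins of chromosome 22. Those 13 bins had 22.6% in DKO1 and 11.7% in HCT116. Late bins of the other autosomes had 14.4% in DKO1 and 9.38% in HCT116, so timing within the class was not matched. These values are descriptions of 1 library per line, with no test.

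Whether a stretch between 2 early domains had been copied once its flanks had was asked in single cells at 40 to 60% progress. The stretches, 1 of middle and 4 of late share in HCT116, were chosen after their values were seen. For the region from 35760001 to 37360000, both flanking early domains were mostly replicated in 92 of 103 DKO1 cells and 133 of 136 HCT116 cells. Among these, the region was mostly replicated in 79 DKO1 cells (85.9%, 77.0 to 92.3%) and 36 HCT116 cells (27.1%, 19.7 to 35.5%). In 122 of the 136 HCT116 cells the region held both replicated and unreplicated bins, against 52 of the 103 DKO1 cells, and it was replicated throughout in 47 DKO1 cells and 9 HCT116 cells. The late stretches stayed behind their flanks in most cells of both lines. In HCT116 this was largely set in advance, since late and early domains were drawn on the shares of these same cells. From 39360001 to 40080000 on chromosome 21, the stretch was replicated in 17 of 76 DKO1 cells with replicated flanks (22.4%, 13.6 to 33.4%) and 6 of 122 HCT116 cells (4.92%, 1.83 to 10.4%). From 31280001 to 32240000 it was 8 of 80 DKO1 cells (10.0%, 4.42 to 18.8%) and 6 of 125 HCT116 cells (4.80%, 1.78 to 10.2%). From 41280001 to 42640000 it was 4 of 79 DKO1 cells (5.06%, 1.40 to 12.5%) and 6 of 122 HCT116 cells (4.92%). On chromosome 22 the late domain was replicated in 10 of 103 DKO1 cells (9.71%, 4.75 to 17.1%) and 2 of 136 HCT116 cells (1.47%, 0.179 to 5.21%). Among the cells with replicated flanks at the first region, the median progress was 48.7% in DKO1 and 52.0% in HCT116.

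**Figure D4:**
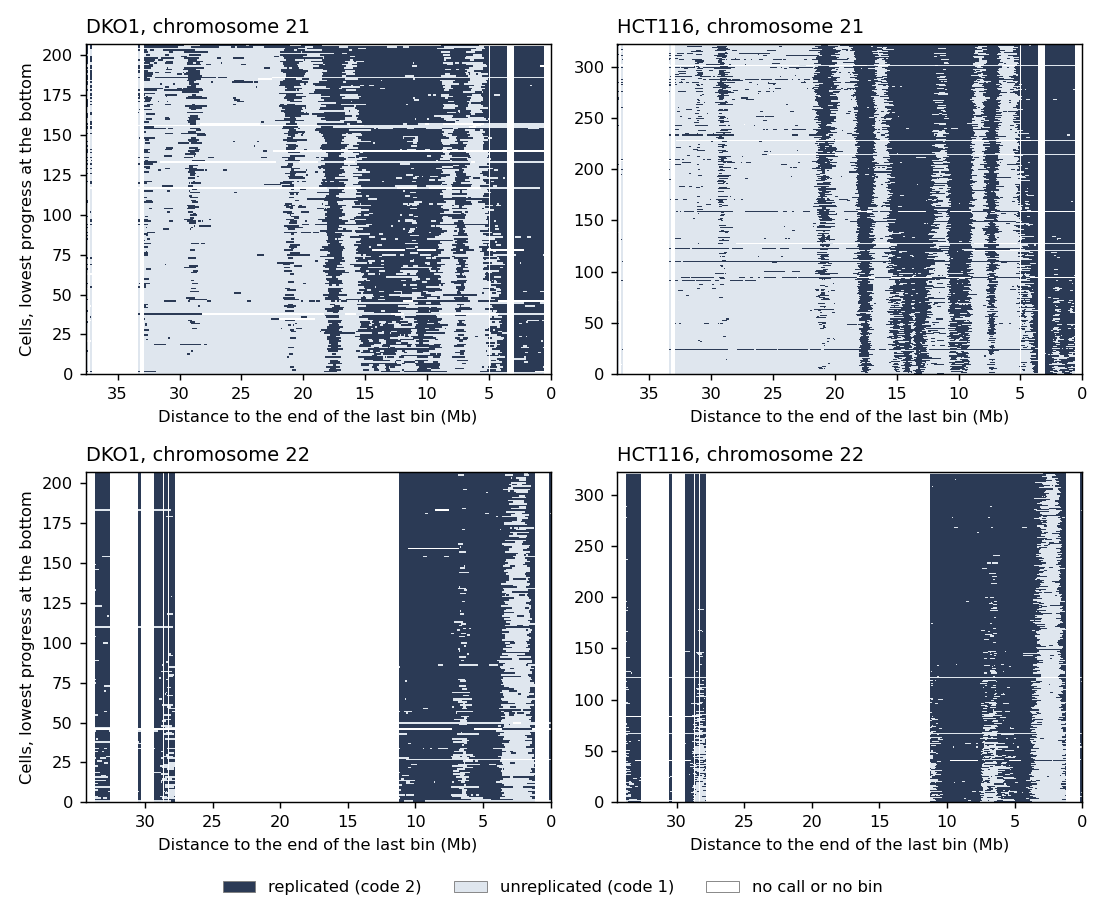
State of each bin (x axis, distance to the end of the last bin in Mb, far end on the right) in each cell (y axis, cells ordered by S-phase progress, lowest at the bottom), with DKO1 on the left and HCT116 on the right, chromosome 21 above and chromosome 22 below. Dark marks replicated bins, pale marks unreplicated bins and white marks no call or no bin. The dark columns of chromosome 21 widen with progress in both lines, and the late trough of chromosome 22 fills in a larger share of DKO1 cells than of HCT116 cells.

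Cell by cell, chromosome 22 ran ahead of the progress of the cell and chromosome 21 mostly behind it. At 20 to 30% progress the median cell had replicated 23.6% of chromosome 21 in DKO1 (11 cells, 12.2 to 36.0%) and 19.4% in HCT116 (33 cells, 14.4 to 91.8%). At 40 to 50% progress it was 39.8% in DKO1 (53 cells, 26.1 to 58.5%) and 34.5% in HCT116 (60 cells, 2.69 to 98.8%). At 60 to 70% progress it was 56.0% in DKO1 (40 cells, 21 to 66.9%) and 50% in HCT116 (82 cells, 0 to 79.4%). Chromosome 22 had a median of 74.2% in DKO1 and 62.0% in HCT116 at 20 to 30% progress. At 40 to 50% progress it had 84.0% in DKO1 and 82.2% in HCT116, and at 60 to 70% progress 91.1% in DKO1 and 89.9% in HCT116. On chromosome 22 the lines thus lay furthest apart in the earliest of these strata, and on chromosome 21 the median was higher in DKO1 in each of them.

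**Figure D5:**
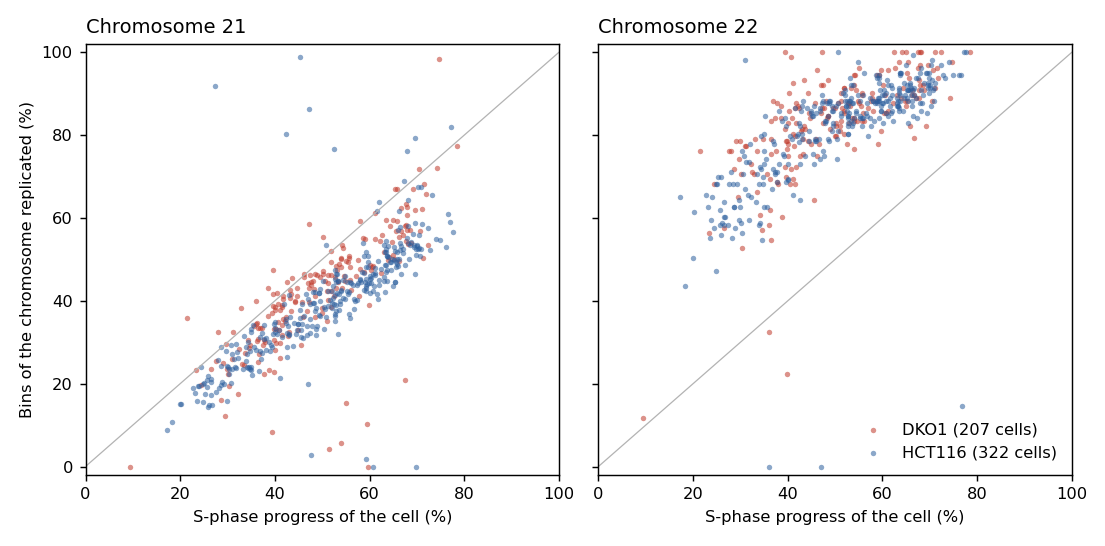
Percent of the called bins of chromosome 21 (left) and chromosome 22 (right) that were replicated in each cell (y axis) against the S-phase progress of the cell over all used bins (x axis, percent), with DKO1 in red and HCT116 in blue and the grey line marking equality. Most cells of chromosome 22 lie above the line and most cells of chromosome 21 below it, with a few cells of both lines far off the main band.

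A few cells carried a chromosome far from this relation. The share of each chromosome was set against progress on the other chromosomes by a straight line per line of cells, and a departure over 15 points was counted. On chromosome 21 this held for 10 of 207 DKO1 cells (4.83%, 2.34 to 8.70%), 3 high and 7 low, and for 15 of 322 HCT116 cells (4.66%, 2.63 to 7.57%), 10 high and 5 low. On chromosome 22 it held for 14 DKO1 cells (6.76%, 3.75 to 11.1%), 4 high and 10 low, and for 8 HCT116 cells (2.48%, 1.08 to 4.84%), 2 high and 6 low. Within 2 points of that limit lay 3 DKO1 and 4 HCT116 cells on chromosome 21, and 11 DKO1 and 4 HCT116 cells on chromosome 22. The share of chromosome 22 flattened at high progress, which a straight line does not follow. How far the counts of outlying cells depend on this fit was not tested. Some outlying cells had no call in part of the bins of the chromosome, so their share rests on fewer bins. Code 0 took over 10% of the bins of chromosome 21 in 9 DKO1 and 7 HCT116 cells. The part of missing calls in the departures was not tested. The departures ran from -50.8 to 35.8 points in DKO1 and from -54.1 to 70.1 points in HCT116 on chromosome 21. Across all cells, Pearson's r between the departures of the 2 chromosomes was 0.045 in DKO1 and 0.004 in HCT116. A few extreme cells weigh heavily in these values, and no value without them was computed. Chromosome 21 was ahead of chromosome 22 in 3 of 207 DKO1 cells (1.45%, 0.300 to 4.18%) and 6 of 322 HCT116 cells (1.86%, 0.687 to 4.01%). Without the outlying cells the mean difference in share between the lines was 4.70 points on chromosome 21 and 2.87 points on chromosome 22.

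The spread of departures was close in the lines. Its SD was 9.32 points in DKO1 and 9.77 points in HCT116 on chromosome 21, and 9.11 points in DKO1 and 9.50 points in HCT116 on chromosome 22. The sign of this difference changed with the setting, and no direction is read from it. On chromosome 21 the SD was 3.61 points larger in DKO1 with bins called in 99% of cells, and DKO1 minus HCT116 was -4.26 points in the cells low in code 0. On chromosome 22 it was 0.602 points larger in DKO1 with code 0 counted as unreplicated.

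Pairs of DKO1 cells were less alike than pairs of HCT116 cells on chromosome 21, and by a smaller margin on chromosome 22. Cells between 40 and 60% progress were paired where their progress lay no more than 5 points apart. A cell enters many pairs, so the pairs are not independent, and no interval is given. Such pairs differed in 20.7% of the bins of chromosome 21 in DKO1 (104 cells, 2329 pairs) and 16.4% in HCT116 (138 cells, 4124 pairs). On chromosome 22 they differed in 10.5% of bins in DKO1 and 9.56% in HCT116. Over all autosomes the values were 23.1% in DKO1 and 17.1% in HCT116. In the main setting, the only one run by timing class, the early bins of chromosome 22 had the other order by a small margin. Pairs differed there in 4.85% of bins in DKO1 and 5.39% in HCT116, while in early bins of the other autosomes they differed in 13.6% in DKO1 and 6.42% in HCT116. The early bins of chromosome 22 also had higher shares, 93.8% in DKO1 and 91.3% in HCT116. Those of the other autosomes had 86.6% in DKO1 and 89.9% in HCT116, so the sets were not matched in timing. In the early bins of chromosome 21 the values were 16.5% in DKO1 and 9.84% in HCT116. In the 13 late bins of chromosome 22 they were 21.8% in DKO1 and 9.85% in HCT116. The gap in discordance on chromosome 22, 0.948 points with all cells, was 3.11 points in the cells low in code 0 and 1.73 points without outlying cells.

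Bins that 20 to 80% of the mid-S cells had copied, called intermediate here, took 25.9% of chromosome 21 in DKO1 (104 bins) and 18.4% in HCT116 (74 bins). On chromosome 22 they took 14.1% in DKO1 (23 bins) and 8.59% in HCT116 (14 bins), and over all used bins 36.0% in DKO1 and 26.1% in HCT116. The number of changes of state along a chromosome was close in the lines. A mid-S cell changed state a mean of 14.4 times along chromosome 21 in DKO1 (0 to 29) and 14.8 times in HCT116 (2 to 31). Along chromosome 22 it changed 4.38 times in DKO1 (0 to 13) and 4.55 times in HCT116 (0 to 13). Per 10 Mb of used bins that was 4.48 changes in DKO1 and 4.59 in HCT116 on chromosome 21, and 3.36 in DKO1 and 3.49 in HCT116 on chromosome 22.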

How the data were processed

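The table analysed holds state codes (0, 1 or 2) per 80 kb bin and S-phase cell, deposited by the authors and named for a hidden Markov model with binary output. Its columns are cells, whose line is read from the prefix, per the file headers. Named in the submitters' processing notes are hg19, GRCh37, bedtools 2.26.0, SAMtools 1.10 and Cell Ranger. For the model itself the software, filters and read depth were not given in the sources used here. Groups come from the sample titles. Shares, matched strata, runs, pair discordance and departures were computed with Python 3.11.15, NumPy 2.4.6, pandas 2.3.3 and SciPy 1.17.1, and checked on simulated cells with known shifts. Named regions follow a rule of size: the 5 longest early and late domains, and the 5 runs with the highest summed difference in each direction, per chromosome, from which examples are given, and the 3 earliest and latest bins. The chromosomes, lists and rules were chosen with earlier results of these data known. No doublet caller was run. Genes were not assigned to bins, because the gene table is on another build, so the listed genes were not run. The G1 libraries were not used here.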

Additional observations from a re-analysis of the deposited data

Results flagged for a closer look

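Code 0, which the comparisons leave out, was more frequent in DKO1 than in HCT116 on both chromosomes. It took 2.01% of the calls of chromosome 21 in DKO1 and 0.825% in HCT116, and 0.652% of the calls of chromosome 22 in DKO1 and 0.194% in HCT116, against 2.42% in DKO1 and 0.797% in HCT116 on the other autosomes. On chromosome 21 it was concentrated in few cells: 9 of 207 DKO1 cells (4.35%, exact interval 2.01 to 8.09%) and 7 of 322 HCT116 cells (2.17%, 0.878 to 4.43%) had it in over 10% of the bins. On chromosome 22 this held for 3 DKO1 and 3 HCT116 cells. By timing class of chromosome 21 it took 1.66, 2.11 and 2.20% of early, middle and late calls in DKO1, and 0.639, 0.688 and 1.0% in HCT116. The code is not defined in the table, and what it stands for was not tested.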

How the results depend on the processing

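The direction of the share differences held under each setting tried: from 1.97 to 4.70 points on chromosome 21, from 1.5 to 3.52 points on chromosome 22, and from -42.1 to -31.5 points in DKO1 and from -42.5 to -32.0 points in HCT116 for chromosome 21 minus 22. The last was -32.0 points where a bin needed calls in 99% of cells, which 36 bins of chromosome 21 had. All settings reuse cells of the same 1 library per line, so the steady direction is no separate support. The 14 named runs gave 118 values over the settings, each with the sign of the main value. The runs were picked by that sign and the settings reuse the same cells, so this outcome was largely set in advance. The 99% minimum left bins in 6 of the 14, and none in the largest higher region. Bins differing by at least 15 points numbered 44 on chromosome 21 (10.9%) and 7 on chromosome 22 (4.29%), against 14.3% of all used bins. With the 99% minimum the count on chromosome 21 was 6 of 36 bins, a larger part than 44 of 402. With all used bins, chromosomes 21 and 22 had 105 and 23 at a limit of 10 points and 25 and 0 at 20 points. The share of all used autosomal bins past 20 points was not computed. At 10 points 20.4% of chromosome 21 and 14.1% of chromosome 22 were higher in DKO1, against 14.7% of all used bins. Lower in DKO1 were 5.72% of chromosome 21 and 0 bins of chromosome 22, against 14.8% of all used bins. On chromosome 22 the count at 15 points was 3 with no matching and 3 with strata from 30 to 70%. Without the largest higher region of chromosome 21 it was 27, and without that region and the bins before 16 Mb 16. These omissions were chosen after seeing the data. Switches per cell differed by -0.37 on chromosome 21 and -0.17 on chromosome 22. On chromosome 21 this was 0.55 with the 99% minimum, -0.24 with every bin, -0.20 with cells of little code 0, -0.0152 without outlying cells and -0.22 with progress from the other autosomes. On chromosome 22 it was -1.40 with the 99% minimum, -0.32 with code 0 as unreplicated, 0.23 with cells of little code 0 and -0.11 with progress from the other autosomes. The SD of departures differed by -0.45 on chromosome 21 and -0.39 on chromosome 22. It was 3.61 on chromosome 21 with the 99% minimum, -0.0508 and 0.60 with code 0 as unreplicated, -4.26 and -0.99 with cells of little code 0, and 1.36 and 0.76 without outlying cells. The causes of these changes were not tested. No paired analysis was possible because each line has 1 S-phase library. The cells of little code 0, no more than 1% of bins, 82 DKO1 and 246 HCT116 cells, could be matched from 30 to 70% progress only.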
